A study of Mus musculus with 11 samples.

Results

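The subunits of the mitochondrial respiratory chain that are encoded in the nucleus were followed in mouse microglia, the resident macrophages of the brain, in 4 groups of cells. Members were taken by gene symbol, as Nduf genes of the series a, b, c, s and v for complex I, Sdha to Sdhd for complex II, Uqcr genes for complex III and Cox4 to Cox8 genes for complex IV. Of 72 such symbols in the mouse reference gene table, 5 of them pseudogenes, 63 had a probe on the array, out of 23329 symbols on it. One of them, Ndufc2, was not well above background on any array, and the other 62 were well above background on all 11 arrays. These 62 comprised 34 members of complex I, 4 of complex II, 7 of complex III and 17 of complex IV, and they were tested together with all 19565 genes that passed the filter on dim probes. All cells came from C57BL/6N mice. A_FACS (2 arrays) were microglia of adult female mice aged 12 to 24 weeks, sorted by flow cytometry for intermediate CD45 and high CX3CR1 and lysed at once. NB_FACS (3 arrays) were sorted in the same way from newborn mice of both sexes at day 1 to 3 after birth. NB_Control (3 arrays) were newborn microglia that had grown for weeks in mixed glial flask cultures of 2 to 3 brains with L-929 conditioned medium. They were then shaken off and kept for 1 day in DMEM/F12 with serum. NB_Stim (3 arrays) were the same cells given 3 human cytokines, CX3CL1, IL-34 and TGF-β1, each at 100 ng/mL. These ages, sexes and culture steps are those the methods give for the study as a whole, not for each array. Cultured and newborn sorted cells thus differed in isolation and in the time since birth as well as in culture. Adult and newborn sorted cells differed in sex as well as in age. In both cases the contributions cannot be told apart.

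The respiratory chain passes electrons from NADH and succinate through complexes I and II to ubiquinone, then through complex III to cytochrome c and through complex IV to oxygen, and it pumps the protons that drive ATP synthase. Complexes I, III and IV each have a small catalytic core, which is partly or wholly encoded in the mitochondrial genome. Many supernumerary subunits from the nucleus join it and serve assembly and stability. Microglia are known to draw on both oxidative phosphorylation and glycolysis, and to change the balance between them with their state of activation.

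Promoter windows of the members were searched for the letters of factors known to act on nuclear genes for mitochondrial proteins. RefSeq windows from 250 bases before to 50 bases after the transcription start (GRCm38.p6) were matched for 51 of the 62 members, as 53 windows. The core of the nuclear respiratory factor 1 (NRF1) site, GCGCATGC, was found on either strand in 7 of these windows (13.2%) and in 2.71% of all 32851 windows. The letters CCGGAAG, bound by GABP and other ETS factors, were found in 11 member windows (20.8%) and in 8.86% of all windows. The letters AAGATGGCG of the YY1 site were found in 5 member windows (9.43%) and in 1.4% of all windows, in each of the 5 just after the start, as in Ndufc1 and Ndufs7. A match of letters is a description and was not read as a binding site. The 180 bases before the start of 6 members whose values are described later are given here, 4 that hold NRF1 or ETS letters and 2, Ndufs5 and Ndufs8, that hold neither in this stretch (Ndufs8 has ETS letters after the start). Uqcr11 also holds NRF1 letters that run across its start, which the stretch cuts and which are left in lower case. Each runs 5′ to 3′ on its gene's strand. Capitals mark the NRF1 and ETS letters on either strand, and where 2 NRF1 matches on opposite strands overlap, the capitals run over both.
Cox6a1, chr5:115348959-115349138, minus strand: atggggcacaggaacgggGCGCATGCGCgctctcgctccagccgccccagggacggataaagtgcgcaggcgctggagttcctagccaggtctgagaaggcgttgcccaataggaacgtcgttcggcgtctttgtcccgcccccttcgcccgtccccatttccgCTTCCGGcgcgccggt
Ndufa11, chr17:56717582-56717761, plus strand: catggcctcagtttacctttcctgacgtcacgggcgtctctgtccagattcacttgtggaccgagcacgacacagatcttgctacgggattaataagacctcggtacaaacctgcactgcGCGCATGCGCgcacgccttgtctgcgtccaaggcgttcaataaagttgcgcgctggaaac
Uqcr11, chr10:80406822-80407001, minus strand: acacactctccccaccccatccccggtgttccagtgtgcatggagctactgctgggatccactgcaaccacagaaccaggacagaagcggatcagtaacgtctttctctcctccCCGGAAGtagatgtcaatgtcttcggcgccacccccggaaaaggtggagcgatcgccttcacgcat
Cox6b1, chr7:30626115-30626294, minus strand: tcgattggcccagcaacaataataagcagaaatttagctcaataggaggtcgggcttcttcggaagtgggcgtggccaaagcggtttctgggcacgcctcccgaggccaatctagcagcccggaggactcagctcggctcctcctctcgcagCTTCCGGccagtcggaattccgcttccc
Ndufs5, chr4:123718187-123718366, minus strand: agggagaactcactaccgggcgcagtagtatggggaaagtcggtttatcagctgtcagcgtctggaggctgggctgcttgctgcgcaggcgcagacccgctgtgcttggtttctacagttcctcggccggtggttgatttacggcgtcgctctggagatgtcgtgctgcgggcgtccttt
Ndufs8, chr19:3912775-3912954, minus strand: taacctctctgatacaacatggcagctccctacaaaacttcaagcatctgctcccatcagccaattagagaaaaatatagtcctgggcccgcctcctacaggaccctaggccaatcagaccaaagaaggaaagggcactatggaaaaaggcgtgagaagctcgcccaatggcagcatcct

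Replicate 3 of each newborn group was on a second slide, and the 2 adult arrays, both on slide 1, lay apart from each other. Between 66.8% and 80.5% of probes were well above background per array, and no spot was saturated. The number of arrays limits the precision. The microglial gene Tmem119 had a mean log2 signal of 16.22 in A_FACS, 14.04 in NB_FACS, 10.36 in NB_Control and 13.26 in NB_Stim, and P2ry12 had 14.17, 12.95, 6.51 and 7.54. Summed over 7 of 8 microglial markers, the signal was 271000 to 295000 in A_FACS, 163000 to 187000 in NB_FACS, 37700 to 63600 in NB_Control and 139000 to 150000 in NB_Stim, so the cultured cells were low in the defining markers without the cytokines. Markers of other cells moved with the groups. The summed signal of 7 erythroid markers was 135000 to 178000 in NB_FACS, 8380 to 24500 in A_FACS, 238 to 253 in NB_Control and 230 to 319 in NB_Stim. The summed signal of 6 proliferation markers was 31500 to 37100 in NB_FACS, 7930 to 8520 in A_FACS, 6610 to 11500 in NB_Control and 5160 to 7330 in NB_Stim. That of 6 fibroblast markers was 912 to 1150 in NB_FACS, 1050 to 2180 in A_FACS, 30400 to 36300 in NB_Control and 16900 to 38400 in NB_Stim, and that of 6 border macrophage markers was 10900 to 13600, 247 to 655, 44100 to 87500 and 19300 to 32700 in the same order. Within that last list the genes went both ways, with 2 higher and 2 lower in NB_Control than in NB_FACS. In NB_Stim 2 were higher and 3 lower than in NB_FACS. Other lists were mixed too. In A_FACS, 1 fibroblast marker was higher and 4 were lower than in NB_FACS, and 1 erythroid marker was higher and 3 were lower. In NB_Stim, 1 endothelial marker was higher and 4 were lower than in NB_FACS. The summed signal of 6 endothelial markers was 4540 to 6250 in NB_FACS, 6240 to 13000 in A_FACS, 358 to 707 in NB_Control and 1610 to 1710 in NB_Stim. That of 5 of 6 markers of the oligodendrocyte lineage was 641 to 679, 482 to 857, 1340 to 1970 and 9260 to 12600, and that of 5 of 6 astrocyte markers was 1380 to 1570, 336 to 563, 1600 to 1910 and 958 to 1420, in the same order. The part of these cells in the results below was not tested. In such bulk samples fewer cells of a type and less RNA per cell cannot be told apart.

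Across the 4 groups the median of the members was lowest in adult sorted cells, intermediate in newborn sorted cells and highest in cultured newborn cells, with or without the cytokines. The median over all 62 members, as log2 signal minus the NB_FACS mean, was -0.88 and -0.51 in the A_FACS arrays and -0.11, -0.01 and 0.12 in the NB_FACS arrays. It was 0.43, 0.59 and 0.50 in the NB_Control arrays and 0.46, 0.45 and 0.46 in the NB_Stim arrays. The 3 levels did not overlap between arrays, while the NB_Stim arrays lay within the range of the NB_Control arrays. The median over all genes tested stayed between -0.04 and 0.10 on every array. Of the 62 members, 31 were called higher in at least 1 of the cultured groups than in NB_FACS, against 20% of all genes, and 36 were called lower in A_FACS than in NB_FACS, against 12.9% of all genes. In no comparison were 18 members called, against 53.2% of all genes. All 3 of these comparisons share the NB_FACS arrays, so a deviation of those arrays would enter each of them.

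**Figure D1:**
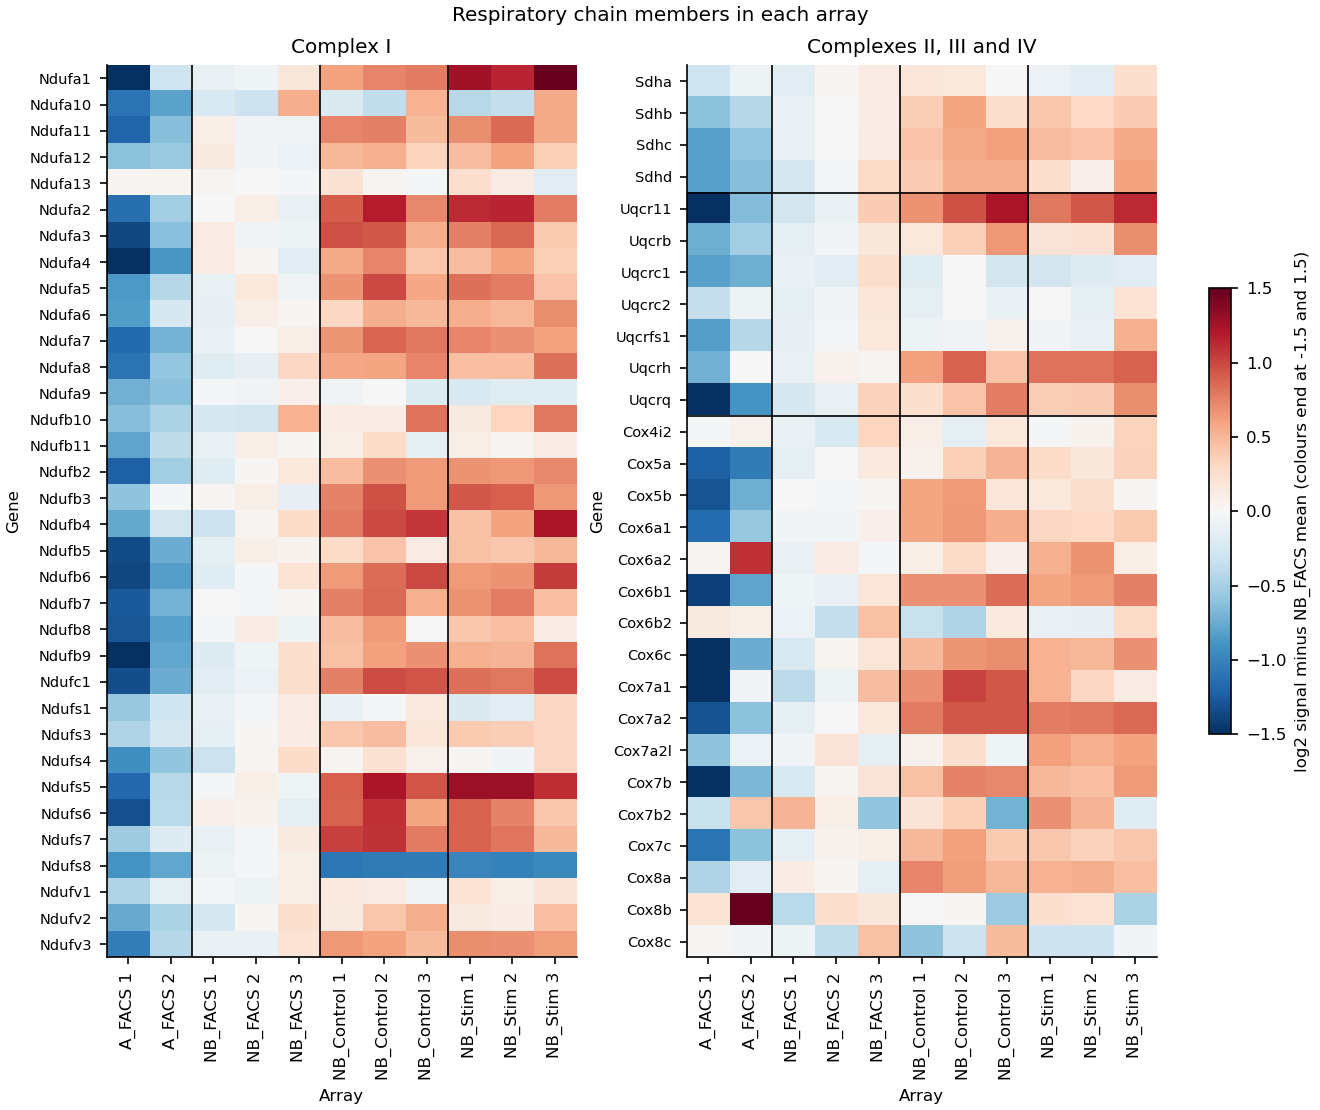
Heat map of the 62 members that passed the filter (rows, grouped by complex) over the 11 arrays (columns). Color gives log2 signal minus the NB_FACS mean, from -1.5 (blue) to 1.5 (red), with values beyond these limits shown at the limit. Most rows are blue in A_FACS and red in the cultured groups, Ndufs8 is blue in all but NB_FACS, and A_FACS 2 is red for Cox8b and Cox6a2.

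**Figure D2:**
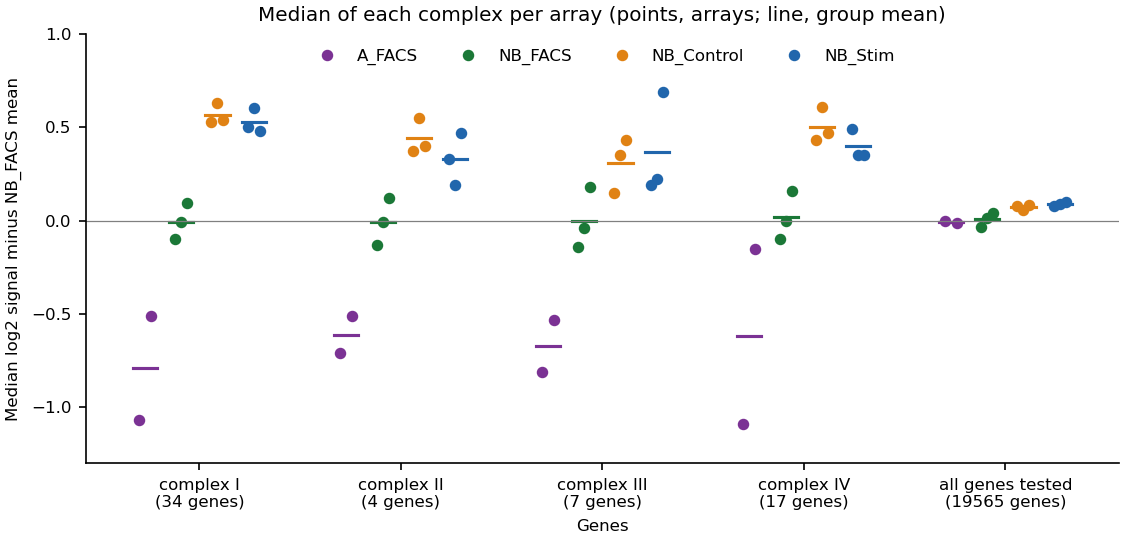
Median log2 signal minus the NB_FACS mean (vertical axis) of the members of each complex and of all genes tested, with 1 point per array and a line at the mean of each group. In complexes I, II and IV the 2 A_FACS arrays lie below, and all cultured arrays above, the 3 NB_FACS arrays. In complex III NB_Control 1 (0.15) lies below NB_FACS 3 (0.18). The points for all genes lie close to 0.

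The first comparison asked how newborn microglia in standard culture differed from newborn microglia taken fresh from the brain. In NB_Control 27 of the 62 members (43.5%) were higher than in NB_FACS, against 15.8% of all genes tested. One member (1.61%), Ndufs8, was lower, against 13.9% of all genes. The median log2 difference of the members was 0.49, and that of all genes was 0.087. Taken by complex, 17 of 34 members of complex I, 2 of 4 of complex II, 2 of 7 of complex III and 6 of 17 of complex IV rose. All 28 called members went the same way on both slides, with a median over the 62 members of 0.56 on slide 1 and 0.41 on slide 2. The calls used the arrays of both slides, and slide 2 held only replicate 3 of each newborn group. This agreement is therefore a description and not a separate test.

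Of the 27 rises, 16 were among the supernumerary subunits of complex I. Among its 28 supernumerary members none fell and the median log2 difference was 0.61. The largest rise was that of Ndufs5, a small supernumerary subunit, whose log2 signal was 10.85, 10.96 and 10.81 in NB_FACS and 11.77, 12.10 and 11.82 in NB_Control. All cultured arrays lay above all sorted arrays, and the difference was 2.02-fold (log2 1.02, SE 0.19, adjusted p = 0.00302). Ndufa2, also supernumerary, measured 13.38, 13.48 and 13.27 in NB_FACS and 14.28, 14.55 and 14.10 in NB_Control, again without overlap (log2 difference 0.93, SE 0.20, adjusted p = 0.0051). Ndufb4 (log2 difference 0.94) and Ndufc1 (0.89), both of the membrane arm, rose as well. Ndufa11, whose promoter window is printed for its NRF1 letters, rose by 0.65 (adjusted p = 0.0154) and was named for its promoter. At the other end Ndufa9, a supernumerary subunit near the ubiquinone site, measured -0.09 and Ndufa10 -0.02, and both overlapped between the groups. Neither passed the test.

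The core subunits of complex I, which carry the flavin and the iron-sulfur clusters, did not move as a block. Ndufs7, which holds the last cluster before ubiquinone, was 10.21, 10.29 and 10.45 in NB_FACS and 11.34, 11.40 and 11.10 in NB_Control. Every cultured array was higher, by 1.95-fold on average (log2 0.96, SE 0.16, adjusted p = 0.0015). Ndufs8, another iron-sulfur subunit, went the opposite way, with 9.99, 10.05 and 10.15 in NB_FACS and 8.98, 9.0 and 9.02 in NB_Control. Its groups did not overlap and its replicates were close, and the fall was 2.10-fold (log2 -1.07, SE 0.11, adjusted p = 7.43e-05). The fall of Ndufs8 was seen on both of its probes, by -1.37 on one and by -0.76 on the other. For the other 4 core subunits measured, the log2 differences were 0.01 for Ndufs1, 0.35 for Ndufs3, 0.08 for Ndufv1, which binds NADH and the flavin, and 0.37 for Ndufv2, and none of them passed the test. With the replicate numbers as a block, Ndufv2 was called (adjusted p = 0.0286). These 4 were named for their role after their values were seen.

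In complex II, which also works in the tricarboxylic acid cycle, Sdhc and Sdhb rose. Sdhc, a membrane anchor, was 11.01, 11.12 and 11.25 in NB_FACS and 11.55, 11.69 and 11.74 in NB_Control (log2 difference 0.53, SE 0.13, adjusted p = 0.0103). The cultured arrays were all above the sorted ones. Sdhb, the iron-sulfur subunit, differed by 0.41 (adjusted p = 0.0421), and this call was lost in 11 of the 23 other settings. Sdhd, the second anchor, measured 0.48 (adjusted p = 0.0703, and 0.0205 with the replicate block), and Sdha, the flavoprotein, measured 0.11 with overlapping arrays.

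In complex III 2 of 4 supernumerary members and none of 3 members grouped as core were called. This group was not the catalytic core alone, as it held Uqcrc1 and Uqcrc2, which are core proteins by name. Uqcr11 and Uqcrh, the small hinge protein, rose, by log2 0.95 (SE 0.29, adjusted p = 0.0314) and 0.64 (SE 0.19, adjusted p = 0.0294). Uqcr11 was 12.05, 12.22 and 12.70 in NB_FACS and 13.00, 13.28 and 13.55 in NB_Control, so that the highest sorted array stayed below the lowest cultured one. Uqcrq (0.49) and Uqcrb (0.39) did not pass, but were called with the replicate block (adjusted p = 0.0431 and 0.0196). The core proteins Uqcrc1 (-0.15) and Uqcrc2 (-0.09) and the Rieske iron-sulfur protein Uqcrfs1 (-0.02) all had overlapping arrays and did not pass.

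In complex IV, of 9 members that are the general or the only isoform, 6 rose, namely Cox7a2, Cox6b1, Cox7b, Cox8a, Cox6a1 and Cox7c, and the median log2 difference of the 9 was 0.61. Cox7a2 was 12.66, 12.80 and 12.97 in NB_FACS and 13.59, 13.74 and 13.74 in NB_Control (1.84-fold, log2 0.88, SE 0.18, adjusted p = 0.00407). Cox6b1, on the side that docks cytochrome c, differed by 0.73 (SE 0.17, adjusted p = 0.00825). Cox7b passed narrowly (0.63, adjusted p = 0.0499), while Cox6c (0.61, adjusted p = 0.075), Cox5b (0.47) and Cox5a (0.31) did not pass. Cox6c and Cox5b were called with the replicate block (adjusted p = 0.0339 and 0.0426). None of the 7 members with a tissue-restricted expression was called, and no test compared them with the general isoforms.

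The count depended on single arrays. It was 18 without NB_FACS replicate 1, 15 without NB_FACS replicate 2, 16 without NB_Control replicate 1 and 15 without NB_Control replicate 2. Called under all 23 other settings were Ndufs5, Ndufs7, Ndufa2, Ndufa7, Ndufb3, Ndufc1, Cox7a2 and Cox8a as higher and Ndufs8 as lower.

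**Figure D3:**
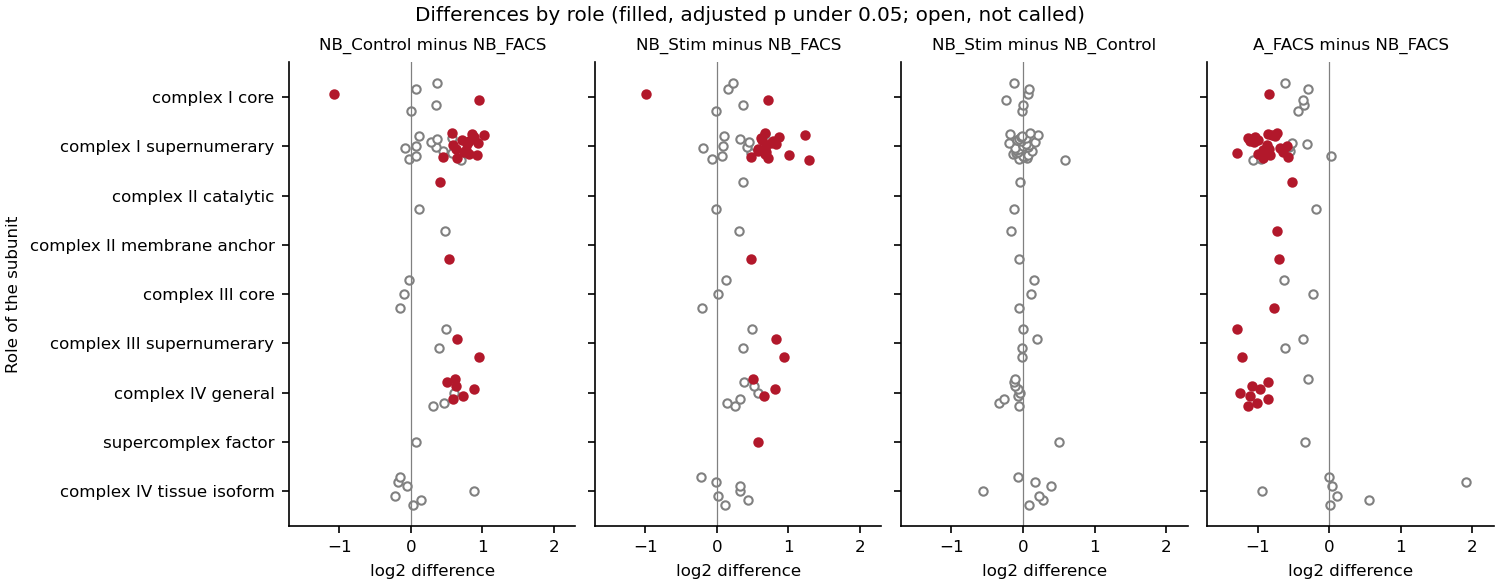
Log2 difference (horizontal axis) of each member in the 4 comparisons, grouped by the role of the subunit (vertical axis), with filled points for members called at an adjusted p under 0.05 and open points for the others. In the comparisons of cultured with sorted cells the filled points on the right are mostly supernumerary and general subunits, Ndufs8 lies alone on the left, and the panel of NB_Stim minus NB_Control has no filled point.

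The second comparison asked whether the cytokines changed these genes in culture. None of the 62 members was called between NB_Stim and NB_Control by limma, with 1 at an unadjusted p below 0.05. Of all 19565 genes tested, 2970 had an unadjusted p below 0.05 by limma. The analysis of variance with Tukey's test called none either. Of all genes, 1.4% were called higher and 2% lower. The median log2 difference of the members was -0.02. The 95% intervals of the differences had a median half-width of 0.40, and for 58 of the 62 members they lay within -1 and 1 on the log2 scale. The wider ones were those of Ndufa1, Cox7a1, Cox7b2 and Cox8b.

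The member with an unadjusted p below 0.05 was Cox7a2l, a factor that tethers complex III to complex IV and of which C57BL/6 mice are known to carry a shortened form. It measured 13.89, 14.07 and 13.76 in NB_Control and 14.44, 14.36 and 14.43 in NB_Stim. All 3 stimulated arrays lay above the control arrays (log2 difference 0.50, SE 0.17, limma adjusted p = 0.164). Ndufa1, a small membrane subunit needed for the assembly of complex I, was 12.91, 13.04 and 13.09 in NB_Control and 13.57, 13.45 and 13.79 in NB_Stim (0.59, adjusted p = 0.454), again without overlap. Ndufs8, as the mean of its 2 probes, stayed at its low level, with 9.07, 9.05 and 9.10 in NB_Stim. The 95% interval of its difference from NB_Control was -0.17 to 0.32. Its probes went opposite ways here, by -0.16 on the dimmer and by 0.31 on the brighter one.

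The third comparison measured how far stimulated cultures were from fresh newborn cells. In NB_Stim 26 members (41.9%) were higher than in NB_FACS, against 16% of all genes, and 1 (1.61%), again Ndufs8, was lower, against 15.1% of all genes. The median log2 difference was 0.46 for the members and 0.11 for all genes. Complex I supplied 19 of the rises, complex II 1, complex III 2 and complex IV 4. The comparison shares its NB_FACS arrays with the first, so the 22 members that were higher in both, against 11.8% of all genes, are not independent of it.

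Ndufa1 led this comparison. Its 3 stimulated arrays lay well above the values of 12.20, 12.25 and 12.48 in NB_FACS (2.44-fold, log2 1.29, SE 0.32, adjusted p = 0.0116). Next were Ndufs5 (1.23, adjusted p = 0.00101) with 12.17, 12.17 and 11.98 in NB_Stim, Ndufa2 (1.01, adjusted p = 0.00329), Uqcr11 (0.94, adjusted p = 0.0326), Ndufc1 (0.87, adjusted p = 0.00492) and Uqcrh (0.83, adjusted p = 0.00831). These 6 genes were chosen among called members without overlap, so their stimulated arrays were all above the sorted ones by that choice. Cox7a2l was called here (0.58, adjusted p = 0.0235), as were Ndufa1, Ndufa6 and Ndufb9, all 4 of which had not passed in the first comparison, although Ndufa6 and Ndufb9 were called there with the replicate block (adjusted p = 0.0304 and 0.0182). Cox6a1, Cox7b, Cox7c, Ndufs6 and Sdhb were called in the first comparison and not in this one, and with the replicate block Cox7b, Cox7c, Ndufs6 and Sdhb were called in both. The test of each difference between the cultures is the second comparison, in which none of these genes passed.

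Ndufs8 was lower by log2 -0.99 (SE 0.11, adjusted p = 0.000112), with -1.53 on its dimmer and -0.45 on its brighter probe. In complex II Sdhc was higher (0.48, adjusted p = 0.0163), Sdhb measured 0.36, Sdhd 0.31 and Sdha -0.01. In complex III Uqcrq measured 0.49, Uqcrb 0.37, Uqcrfs1 0.13, Uqcrc2 0.02 and Uqcrc1 -0.21, and none of these 5 passed, while Uqcrq and Uqcrb were called with the replicate block (adjusted p = 0.0405 and 0.0232). In complex IV Cox7a2 (0.81), Cox6b1 (0.66) and Cox8a (0.51) rose. The count of 27 was 16 with scaling of each array to its 75th percentile, 15 without NB_FACS replicate 1 and 16 without NB_FACS replicate 2, NB_Stim replicate 1 or NB_Stim replicate 2.

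**Figure D4:**
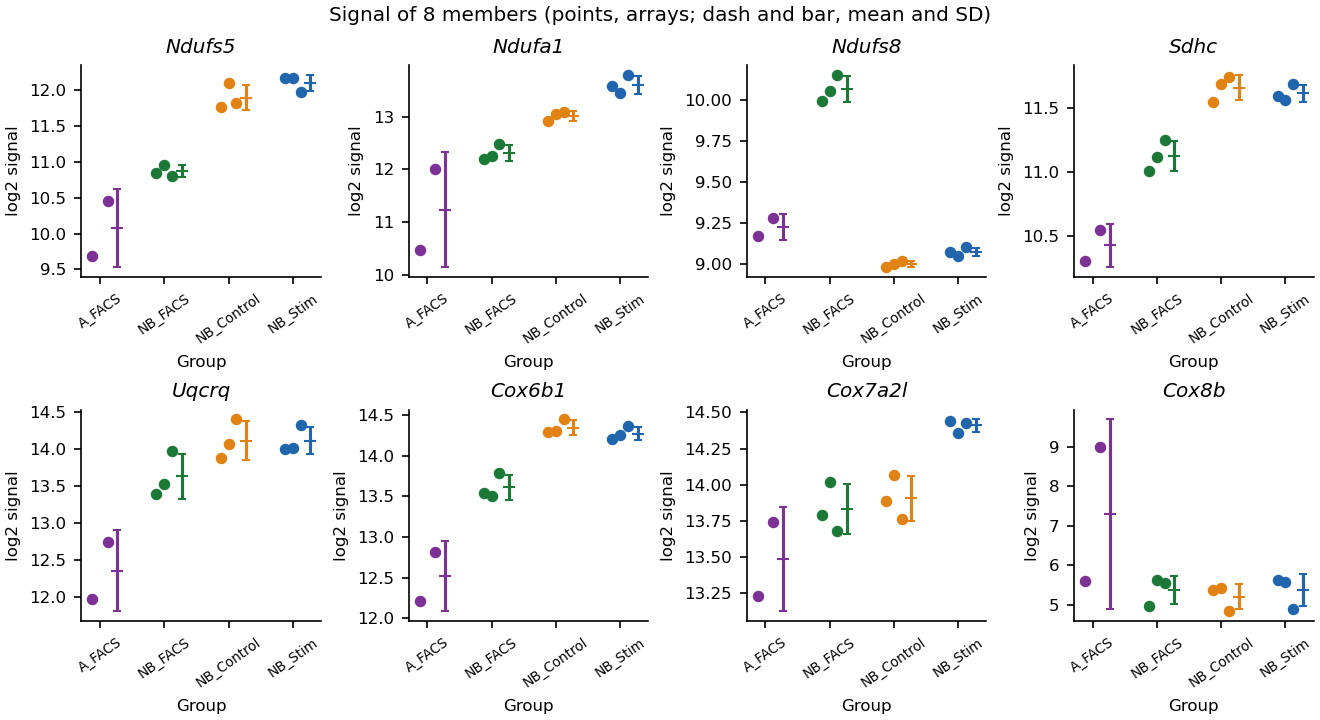
Log2 signal (vertical axis, not starting at 0) of 8 members in each array (points) by group, with the mean and SD beside the points. Ndufs5, Sdhc and Cox6b1 step up from A_FACS to NB_FACS and to the cultured groups, Ndufs8 is high in NB_FACS alone, Cox7a2l is highest in NB_Stim, and Cox8b is high in 1 of the 2 A_FACS arrays.

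The fourth comparison set adult against newborn sorted cells. In A_FACS 36 of the 62 members (58.1%) were lower than in NB_FACS, against 12.9% of all genes, and none was higher, against 9.75% of all genes. The median log2 difference was -0.74 for the members and -0.01 for all genes, and 56 of the 62 differences were negative. Lower members numbered 22 of 34 in complex I, 3 of 4 in complex II, 3 of 7 in complex III and 8 of 17 in complex IV. For 48 members both adult arrays lay below all NB_FACS arrays, and the same count over all genes was not made.

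The largest falls came from complexes I, III and IV. Ndufa4, counted here by its name in complex I and now assigned to complex IV, measured 8.91 and 9.72 in A_FACS and 10.70, 10.64 and 10.44 in NB_FACS. The groups did not overlap, and the difference was 2.42-fold (log2 -1.28, SE 0.23, adjusted p = 0.00325). Uqcrq, a small subunit of complex III, was 11.97 and 12.75 in A_FACS and 13.40, 13.53 and 13.98 in NB_FACS (log2 -1.28, SE 0.27, adjusted p = 0.00846). Cox5a, on the matrix side of complex IV, was 12.34 and 12.52 in A_FACS and 13.42, 13.57 and 13.72 in NB_FACS (log2 -1.14, SE 0.17, adjusted p = 0.00127). In Cox5a the adult arrays were close to each other, and in Ndufa4 and Uqcrq they were not. Cox6c (-1.24), Uqcr11 (-1.21) and Ndufb9 (-1.14) completed the 6 largest falls among called members chosen for a lack of overlap.

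By role, 21 of 28 supernumerary members of complex I were lower and 1 of its 6 core subunits, Ndufs8, was lower. Ndufs8 was 9.17 and 9.28 in A_FACS (log2 -0.84, SE 0.12, adjusted p = 0.00112), which places it below NB_FACS in the adult as in culture. The other 5 core subunits measured between -0.62 (Ndufv2) and -0.29 (Ndufv1) and did not pass. Sdhd (-0.73), Sdhc (-0.70) and Sdhb (-0.52) of complex II were lower, while Sdha measured -0.18. Uqcrc1, a core protein of complex III that had not moved in culture, was lower at 11.28 and 11.36 against 11.99, 11.93 and 12.36 (log2 -0.77, SE 0.16, adjusted p = 0.0082). Uqcrfs1 (-0.63), Uqcrb (-0.62), Uqcrh (-0.36) and Uqcrc2 (-0.22) did not pass, and of these Uqcrb and Uqcrfs1 were called lower with the replicate block (adjusted p = 0.0171 and 0.0466), as was Ndufv2 (0.0175). Of the 9 general or only isoforms of complex IV, 8 were lower, with a median of -1.01, and Cox8a (-0.30, adjusted p = 0.182) was not. Among these 8, Cox6b1 measured -1.10, Cox7b -1.08, Cox7a2 -0.97 and Cox6a1 -0.86.

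The count of this comparison depended on 1 array. A_FACS 2 was higher than A_FACS 1 for 60 of the 62 members, with a median gap of 0.50 on the log2 scale. Of the 62 members, 55 lay below all NB_FACS arrays in A_FACS 1 and 48 in A_FACS 2. The share of all genes that did so was not computed. Without A_FACS replicate 1 the count of called members was 9, of which 7 were lower (Cox5a, Cox6b1, Ndufa4, Ndufa7, Ndufa9, Ndufb5 and Ndufs8) and 2 higher (Cox6a2 and Cox8b), and the median was -0.51. The remaining adult array was then assumed to vary like the other groups. With only the 5 sorted arrays in the fit the count was 16, all lower.

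Isoforms with a known restriction to other tissues gave no call in any comparison. Cox8b, of heart, skeletal muscle and brown fat, was 5.59 in A_FACS 1 and 8.99 in A_FACS 2, and between 4.83 and 5.63 in the 9 newborn arrays. The high value belonged to 1 array. The muscle isoform Cox6a2 was 7.89 and 8.96 in A_FACS and 7.75 to 8.54 in the newborn arrays. Cox7a1, the isoform of heart and skeletal muscle, was 5.66 and 7.46 in A_FACS, 7.11, 7.43 and 7.97 in NB_FACS, 8.19, 8.52 and 8.44 in NB_Control and 8.03, 7.81 and 7.63 in NB_Stim. Its difference of 0.88 between NB_Control and NB_FACS (SE 0.40, adjusted p = 0.131) was as large as that of its general counterpart Cox7a2, with a larger error. The summed signal of 4 muscle markers was 25500 to 39700 in A_FACS and 31200 to 35600 in NB_FACS, and none of the 4 was called between these groups. Cox4i2, known for its rise under low oxygen, was 7.29 to 7.85 over all arrays, and Cox6b2, Cox7b2 and Cox8c, known from testis, varied by 0.39 or less between group means. Ndufa13 was 5.34 to 5.77 on every array and passed in no comparison. Ndufc2 was not well above background, with log2 signals of 1.31 to 2.12. Members without a matched probe, such as Ndufb1, Uqcr10 and Cox4i1, were not analysed here.

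Other mitochondrial genes were set beside the members by lists of pathway names. Of 14 ATP synthase genes, 3 (21.4%, against 15.8% of all genes) rose in NB_Control against NB_FACS, with Atp5k at 0.99, Atp5j2 at 0.83 and Atp5j at 0.77. In the adult comparison 9 of the 14 (64.3%, against 12.9% of all genes) were lower, with a median of -0.89, led by Atp5o at -1.31, Atp5mpl at -1.29, Atp5k at -1.25 and Atp5e at -1.06. The mitochondrial ribosome translates the core subunits encoded in the organelle. Of 69 of its proteins tested, 22 (31.9%, against 15.8% of all genes) rose and 1 fell in NB_Control. In the adult 38 (55.1%, against 12.9% of all genes) were lower and 1 was higher. Mrpl34 measured 1.23 in culture and -1.33 in the adult. In NB_Stim against NB_FACS 3 ATP synthase genes (21.4%) and 17 ribosomal proteins (24.6%) rose, against 16% of all genes. Of the ribosomal proteins 6 fell (8.7%, against 15.1% of all genes). Neither list had a call between NB_Stim and NB_Control.

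Of 45 assembly factors, 20 rose (44.4%, against 15.8% of all genes) and 4 fell (8.89%, against 13.9%) in NB_Control, among them Pet100 (1.59) and Coa4 (1.48), both for complex IV, Sdhaf2 (1.13), which adds the flavin to Sdha, and Coa6 (1.12). Coa7 fell by -0.90, and Nubpl, which delivers iron-sulfur clusters to complex I, by -0.51. In NB_Stim against NB_FACS 17 rose (37.8%), led by Ndufaf5 (1.81), and 7 fell (15.6%), against 16% and 15.1% of all genes. Pet100 was the single list gene of this kind called for the cytokines, lower by -1.22 (SE 0.26, adjusted p = 0.0366). In the adult 7 assembly factors (15.6%, close to the 12.9% of all genes) were lower, led by Coa7 (-1.20), and Lyrm7, a chaperone of the Rieske protein, was higher (0.79).

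Of 19 genes of the tricarboxylic acid cycle and pyruvate dehydrogenase, 2 rose (10.5%, against 15.8% of all genes) and 5 fell (26.3%, against 13.9%) in NB_Control, among them Idh2 at -1.59, Suclg2 at -1.25, Dlst at -0.83 and Dld at -0.70 as falls and Idh3b at 0.64 as a rise. In NB_Stim against NB_FACS 4 fell (21.1%, against 15.1% of all genes) and none rose (against 16%). Another 4 calls were lower in the adult (21.1%, against 12.9% of all genes), led by Idh2 at -0.76. Of 16 regulators of mitochondrial biogenesis, 6 (37.5%, against 13.9% of all genes) fell in NB_Control. Among them were Sirt1 (-1.24), Gabpb1 (-1.21), a subunit of GABP, Pprc1 (-1.02) and Nfe2l2 (-0.88). The coactivator Ppargc1b rose by 1.63 and the transcription factor Tfb2m by 0.40. In NB_Stim against NB_FACS 7 fell (43.8%, against 15.1% of all genes) and 2 rose (12.5%, against 16%). Nrf1, whose letters were searched in the promoters and which was named after its value was seen, was lower in NB_Control (-0.65, adjusted p = 0.00523) and in NB_Stim (-0.78, adjusted p = 0.00189) than in NB_FACS, and measured 0.04 in the adult comparison. In the adult 2 were higher (12.5%, against 9.75% of all genes), Gabpb1 at 0.80 and the coactivator Ppargc1a at 0.74. None was lower, against 12.9% of all genes. Of 20 genes for electron carriers, ubiquinone synthesis and related proteins, 2 rose and 2 fell (10% each, below the shares of all genes) in each comparison of cultured with newborn sorted cells, and Pdss1, an enzyme of ubiquinone synthesis, fell in both, by -1.20 and -1.60. In the adult 6 (30%, against 12.9% of all genes) were lower, led by Coq7 (-1.65), Etfb (-1.46) and Coq3 (-1.44). The uncoupling protein Ucp2 was higher (1.00). Ucp2 was also the gene of this list called for the cytokines, higher by 0.58 (SE 0.13, adjusted p = 0.0385). The 2 genes of the mitochondrial genome in the reference table had no matched probe on the array.

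**Figure D5:**
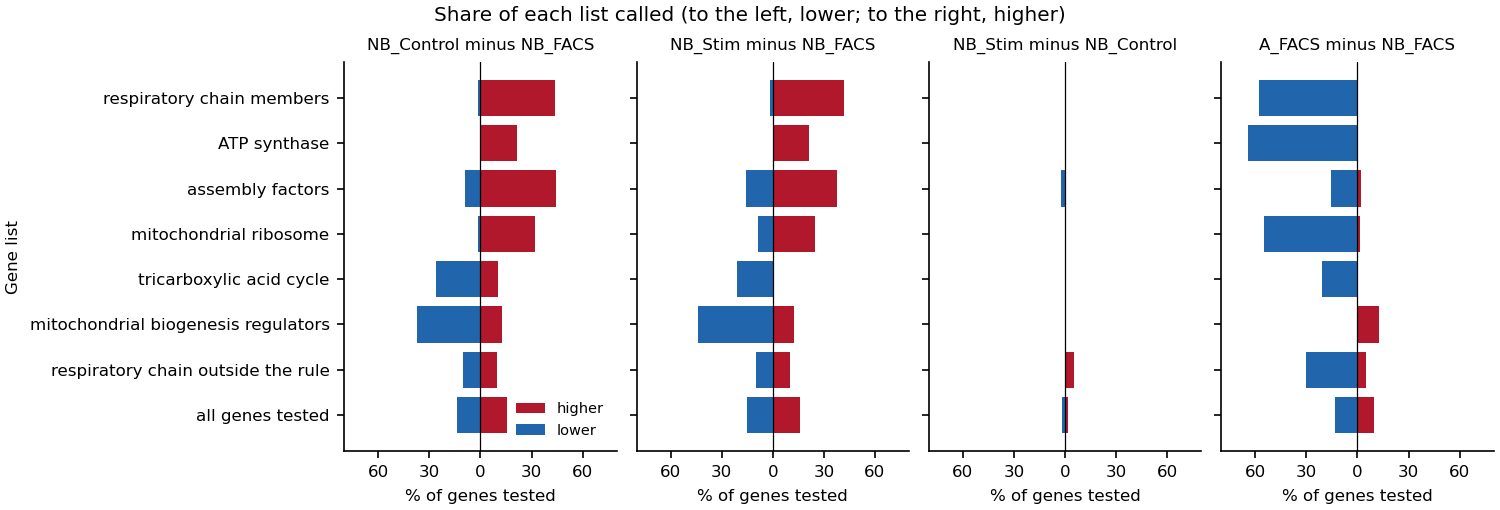
Share of the genes tested in each list that was called lower (bars to the left) or higher (bars to the right) in each of the 4 comparisons, in percent, with all genes tested at the bottom. The members, ATP synthase and the mitochondrial ribosome have long bars to the left in the adult panel, where 58.1% of the members were lower. In both panels of cultured against sorted cells the members and the assembly factors (44.4% and 37.8%) have the longest bars to the right. Those of ATP synthase (21.4% in both) are nearer to those of all genes (15.8% and 16%). The regulators of biogenesis have their longer bars to the left in these panels.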

How the data were processed

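RNA of 11 microglia samples was measured on single-color Agilent arrays. The deposited scanner files hold 1 background-subtracted signal intensity per spot, made by the authors' provider with Feature Extraction 11.5.1.1, and flags for outliers, saturation and background. The authors deposited a series table of the same intensity values, of which 0 of 62927 entries differed beyond a relative tolerance of 1e-05. Groups were taken from the sample titles. The methods define sample numbers as biological replicates that are independent, while the labels do not say which cultures or animals each array came from, so p-values measure the spread between these arrays.

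Log2 intensities were quantile normalized over 60037 probes in limma 3.58.1 (R 4.3.3), without outlier-flagged spots. A probe was kept where all arrays of 1 or more groups had it well above background, and probes of a gene were averaged. Symbols came from RefSeq accessions (36264 probes). Values on the log2 scale of different genes come from different probes and were not compared. limma fitted 1 mean per group to all arrays (7 residual degrees of freedom), Benjamini-Hochberg adjustment ran over 19565 genes, and members were called at an adjusted p under 0.05. Scripts were tested on simulated data.

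The members, roles and lists were chosen with earlier results of these data known, and no test was run over a list. Named were, per comparison, the 6 largest rises and falls among called members without overlap, all Sdh and Uqcr members, isoforms of complex IV, members removed by the filter and up to 4 genes each way per list. Ndufa9, Ndufa10, Ndufa13, the uncalled core subunits, Cox5a, Cox5b and Cox6c in culture and genes that gained or lost a call were named after their values were seen. Arrays with the same replicate number deviated together, with correlations of 0.112 to 0.489 in all 9 pairs of newborn arrays. Another number correlated more for replicates 1 and 2 of NB_FACS with NB_Stim and for replicate 2 of NB_Control with NB_Stim. Replicate 3 of each newborn group also shared a slide, so for it number and slide cannot be told apart. The labels state no pairing, and a replicate block was run only as an alternative. Replicates 1 and 2 of each cultured group were closer (mean absolute log2 difference 0.172 and 0.19) than either was to replicate 3 (0.406 to 0.499). Promoters came from RefSeq tables (GRCm38.p6), and figures from matplotlib 3.10.9.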

Additional observations from a re-analysis of the deposited data

How the results depend on the processing

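Counts of called members were recomputed under 23 other settings. Of 92 counts, 76 stayed within 1.5 times the main count, and no called member changed sign. The count for NB_Stim against NB_Control was 0 in all of them. For NB_Control against NB_FACS (28) the count was 11 with the analysis of variance and Tukey's test, 13 with cultured replicates 1 and 2 averaged, and 15 to 35 when single arrays were left out. For NB_Stim against NB_FACS (27) it was 16 with scaling to the 75th percentile, 11 with Tukey's test, 10 with cultured replicates 1 and 2 averaged, and 15 to 34 when single arrays were left out. For A_FACS against NB_FACS (36) it was 16 with only the 2 groups compared, 14 with Tukey's test, and 9 to 39 when single arrays were left out, where the 9 was without A_FACS replicate 1. The replicate block gave 38, 0, 37 and 41 in the order NB_Control against NB_FACS, NB_Stim against NB_Control, NB_Stim against NB_FACS and A_FACS against NB_FACS, and the slide block gave 35, 0, 32 and 40. The replicate block ended no call of a member and moved no count by over 1.5 times, while 10, 0, 10 and 5 further members were called in the same order. Slide 1 alone, an alternative chosen after seeing the data, gave 29, 0, 27 and 38. The median of the members was stable within the spread of arrays, except for NB_Stim minus NB_Control at -0.23 and NB_Stim minus NB_FACS at 0.31 with scaling to the 75th percentile, and A_FACS minus NB_FACS at -0.51 without A_FACS replicate 1. Of the 5704 values of all members under these settings, called or not, 187 changed sign. Each of the 187 was called neither in the main fit nor in the other setting. The cause of these changes was not tested, apart from fewer arrays where arrays were left out or averaged. With 3 arrays in each cultured group, the 95% interval between the cultures reached 0.25 to 1.52 on the log2 scale to either side. Calls used the adjusted p and not these intervals, and small differences may have gone uncalled.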
